A study of Mus musculus with 464 samples.

Results

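The genes described here are 10 regulators of the G1 phase of the cell cycle and of cell cycle exit, followed across single mouse cells that differentiate with retinoic acid: Ccnd1, Ccnd2, Ccnd3, Ccne1, Cdkn1a, Cdkn1b, Cdkn2c, Cdkn2d, Gadd45g and Btg2. They were chosen by name, with earlier results of these data known, from the 21973 genes in the expression table, and all 10 are in it. The cells come from R1, a mouse embryonic stem cell line grown with 15% Knockout Serum Replacement and 1000 U/ml of LIF, a cytokine that holds such cells undifferentiated. Per the labels, hanging drops formed embryoid bodies, which are balls of differentiating cells, within 48 hours, and these were then kept for 4 days with retinoic acid, at a dose the labels give as 0.5 mM. All samples carry this 1 label, with no untreated group and no separate cultures named, so every value below describes cells of 1 sample, no p-value can be given, and intervals cover counting error only.

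Passage through G1 is driven by D-type cyclins, which switch on the kinases Cdk4 and Cdk6, and then by E-type cyclins with Cdk2. Together these kinases phosphorylate the retinoblastoma proteins and release the E2F factors that transcribe the genes of S phase. Inhibitors of the CIP/KIP family bind several cyclin-kinase complexes, and those of the INK4 family bind Cdk4 and Cdk6. In the developing nervous system, progenitors leave the cell cycle as proneural factors start neuronal differentiation, and Gadd45g and Btg2 are known there as genes of the cells that make this step.

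Expression was measured with full-length SMART-Seq chemistry on a Fluidigm C1 and is given in TPM, a share of all transcripts corrected for gene length that keeps no sequencing depth. A cell needed 2000 or more detected genes and a mitochondrial share of no more than 20%, and 6 columns failed. The column names form 2 sets of similar size, whose meaning the labels do not give, and 55 columns of one set are near copies of a column of the other. Each such pair was averaged to 1 distinct cell. The distinct cells had a median of 6779 genes above 0 (2059 to 10256).

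Cells were placed in states by counting markers at 10 TPM or more. Endoderm cells had at least 3 of 10 endoderm markers, such as Sox17 and Gata4, with fewer than 4 progenitor and fewer than 6 neuron markers. Among cells with fewer than 3 endoderm markers, neuron cells had at least 6 of 12 neuron markers, such as Stmn2 and Nefl. Of the rest, proneural cells had at least 4 of 10 proneural markers, such as Neurog1 and Neurod4, and of what then remained, progenitor cells had at least 4 of 10 neural progenitor markers, such as Pax6 and Hes5. Neuron cells made up 33% of the distinct cells (exact 95% interval 28.4% to 37.8%). There were 74 proneural cells (18.4%, 14.7% to 22.5%), 62 endoderm cells (15.4%, 12% to 19.3%) and 87 progenitor cells (21.6%, 17.7% to 25.9%). A further 40 cells carried endoderm markers together with neural ones, with a median of 8252.5 genes, against 6300.5 in endoderm and 6573 in progenitor cells. Doublets were not called, and the part of doublets in these 40 cells was not tested. The remaining 7 cells fitted no state. At least 10 of 20 G2/M genes were at 10 TPM or more in 77 neuron cells (57.9%). The same held for 75.7% of proneural, 30.6% of endoderm and 86.2% of progenitor cells. The neuron state is thus set by neuron markers, and its cells cannot be taken as having left the cell cycle.

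The labels call the source embryonic stem cells, and the markers of that stage were mostly absent. Of 6 pluripotency markers, Nanog, Esrrb and Tdgf1 were at 0 in all endoderm cells, where 2 of the 6 were detected in most cells and the summed level had a median of 346.1 TPM. The summed pluripotency level had a median of 0 in neuron, proneural and progenitor cells. Markers of mesoderm, neural crest, blood and endothelium, and glia had summed medians of 0.39 TPM or less in the 4 compared states. Endoderm markers summed to a median of 697 TPM in endoderm cells and 0.14 TPM in progenitor cells.

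A gene is called higher or lower in one state than in another where its mean TPM was at least 2-fold apart, after 1 TPM was added to both means, and its mean log2(TPM + 1) was at least 1 apart in the same direction. This is a rule of size over all genes measured well enough in the states compared, with the 42 state markers left out, and not a test. In neuron against progenitor cells 5 of the 10 genes were higher (Gadd45g, Cdkn1a, Cdkn2d, Btg2 and Ccnd1) and 2 were lower (Ccnd2 and Ccnd3), where the rule took 6.52% of all 11505 genes, 4.82% as higher and 1.70% as lower. In proneural against progenitor cells 3 were higher (Gadd45g, Btg2 and Ccnd1) and 0 lower, against 0.737% of 10858 genes, 0.700% higher and 0.0368% lower. In neuron against proneural cells 1 was higher (Cdkn1a) and 1 lower (Ccnd2), against 3.30% of 11504 genes, 2.96% higher and 0.339% lower. In endoderm against progenitor cells 3 were higher (Cdkn1a, Btg2 and Gadd45g) and 2 lower (Ccnd2 and Ccne1), where 26.3% of 11240 genes passed, 12.5% higher and 13.8% lower. The comparisons with progenitor cells share those 87 cells and are not independent of each other. The 10 genes were chosen with earlier results of these data known, so their counts beside these shares are a description and not a test. They are also highly expressed genes, apart from Cdkn1b and Cdkn2c. Over all distinct cells, the means of the others lay above those of 86.7% (Ccnd1) to 98.6% (Ccnd2) of all genes. Scaling each cell by 1862 broadly detected genes shifted the median of all genes by 0.14 on the log2 scale in the endoderm comparison and gave a split of its calls of 60.7% higher, against 47.6% without that scaling. The calls of these 10 genes were the same under that scaling, except that Gadd45g then passed as lower in neuron than in proneural cells.

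**Figure D1:**
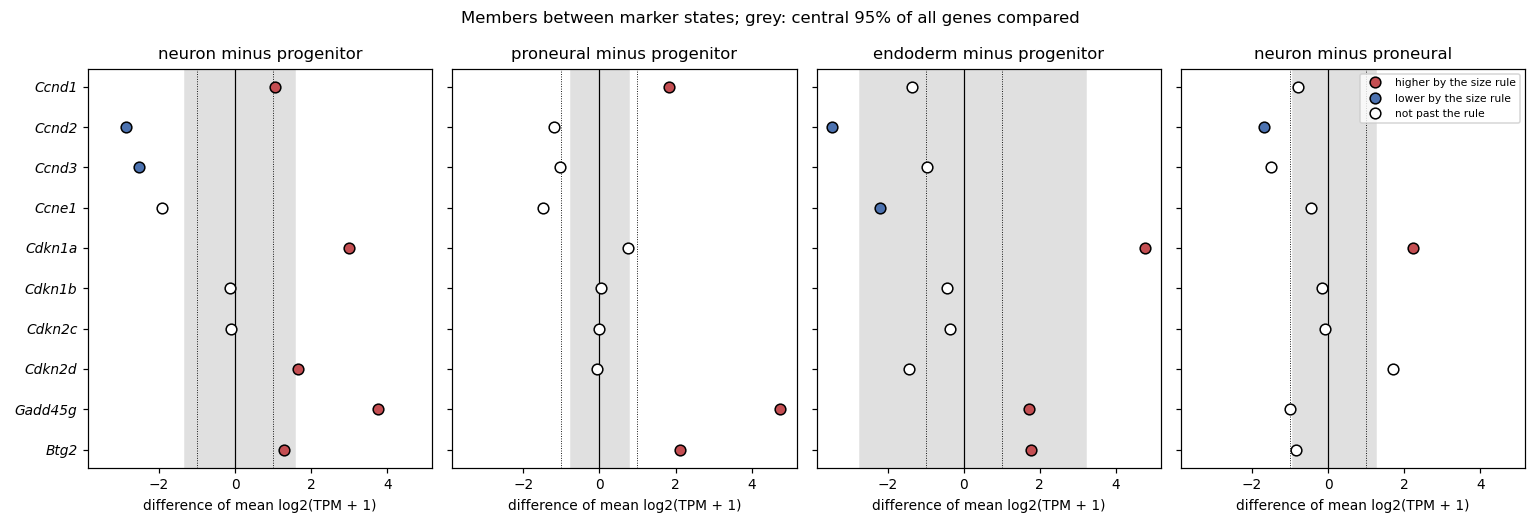
Differences of mean log2(TPM + 1) for the 10 genes in 4 comparisons of states, with the first-named state minus the second, with red points for genes called higher, blue points for genes called lower, and the central 95% of all genes compared in grey. Gadd45g, Btg2 and Ccnd1 lie to the right in proneural minus progenitor cells, and Ccnd2 lies furthest to the left in neuron and in endoderm minus progenitor cells.

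Gadd45g codes for a small nuclear protein of the GADD45 family, which acts in stress signalling and growth arrest. The gene is on chromosome 13 (51846675 to 51848475 in GRCm38.p6, the assembly that mm10 names). Among the genes compared, it had the largest difference of mean log2(TPM + 1) between proneural and progenitor cells, 4.75, rank 1 of 10858. It ran from 0 to 6866 TPM with a median of 368.7 TPM in proneural cells, from 0 to 1788 TPM with a median of 119.3 TPM in neuron cells, and from 0 to 646 TPM with a median of 2.68 TPM in progenitor cells. The interquartile range was 90.3 to 723 TPM in proneural cells and 39.1 to 459.2 TPM in neuron cells, and both lay above that of progenitor cells (0 to 32.7 TPM), although cells at 0 occurred in every state. Its mean was 624 TPM in proneural and 50.4 TPM in progenitor cells, a 12.4-fold ratio, and it stayed at 539 TPM in proneural cells without the cell at 6866 TPM. Neuron cells averaged 302.7 TPM, 6.01-fold above progenitor cells (difference of mean log2 3.75). Neuron against proneural cells missed the rule narrowly, with a difference of mean log2 of -0.996 at means of 302.7 and 624 TPM. In endoderm cells Gadd45g was higher than in progenitor cells (116.3 and 50.4 TPM, 2.31-fold), but the interquartile ranges overlapped and the call was absent within column set 2, where the difference of mean log2 was 0.95. The endoderm call was also lost at a marker cutoff of 20 TPM and with 1 marker more per state.

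Btg2, a member of the BTG/TOB family of antiproliferative proteins, lies on chromosome 1 (134074865 to 134079155). Its values spanned 0 to 367.85 TPM with a median of 50.03 TPM in proneural cells, 0 to 283.9 TPM with a median of 35.3 TPM in neuron cells, 0 to 615 TPM with a median of 57.7 TPM in endoderm cells, and 0 to 117.3 TPM with a median of 15.4 TPM in progenitor cells. Endoderm and proneural cells held similar levels of Btg2, with interquartile ranges of 25 to 86.7 and 31.4 to 95.4 TPM. Means were 75.1 TPM in proneural against 23 TPM in progenitor cells (3.26-fold, difference of mean log2 2.11, rank 10 of 10858 genes) and 74 TPM in endoderm against the same 23 TPM (3.22-fold). In neuron cells the mean was 50.5 TPM, 2.19-fold above progenitor cells, a call that was absent within column set 1 (45.8 and 24.1 TPM, difference of mean log2 0.91). That call was also lost at a marker cutoff of 20 TPM, with 1 marker more per state and without the cell filter. All 40 cells with both endoderm and neural markers had Btg2 at 1 TPM or more, from 2.92 to 226.5 TPM.

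Gadd45g and Btg2 were high in the same neural cells. Spearman's rho between them was 0.65 over the neuron cells and 0.67 over the 74 proneural cells, against 0.24 over 87 progenitor cells and 0.09 over 62 endoderm cells. These are correlations over cells under 1 label, with no separate cultures named. With the number of genes above 0 per cell, Gadd45g had a rho of 0.02 in neuron, -0.21 in proneural, 0.20 in endoderm and 0.39 in progenitor cells. Btg2 had a rho with that number of 0.0035 in neuron, -0.18 in proneural, -0.02 in endoderm and 0.24 in progenitor cells. Both genes were at 10 TPM or more in 63 of 74 proneural cells (85.1%, exact 95% interval 75% to 92.3%), 97 neuron cells (72.9%, 64.5% to 80.3%), 36 of 62 endoderm cells (58.1%, 44.8% to 70.5%) and 21 of 87 progenitor cells (24.1%, 15.6% to 34.5%). This count was chosen after the values were seen. Each gene alone was also common. At 1 TPM or more, Gadd45g was detected in 74.2% and Btg2 in 87.1% of endoderm cells, and in 89.2% and 91.9% of proneural cells. In neuron cells these shares were 91% and 86.5%, and in progenitor cells 58.6% and 72.4%. These single shares use 1 TPM and the joint count uses 10 TPM, so they cannot be set against each other. Whether the genes occurred together more often than single shares at 10 TPM would give was not tested.

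**Figure D2:**
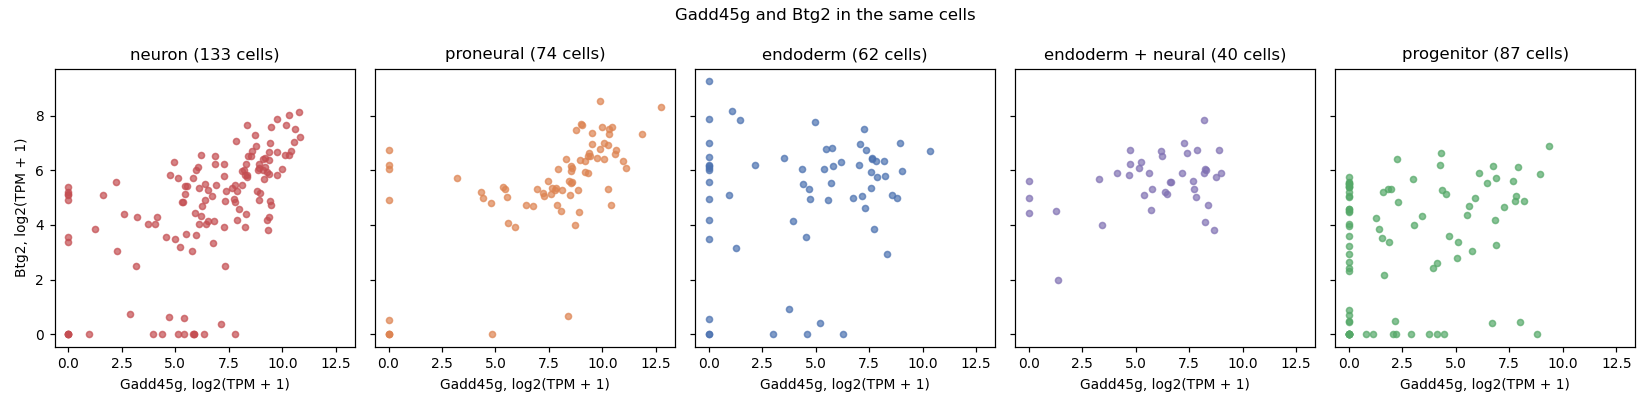
Gadd45g against Btg2 in single cells, both in TPM on log2(TPM + 1) axes, one panel per state. Spearman's rho was 0.65 in neuron and 0.67 in proneural cells, 0.09 in endoderm cells and 0.24 in progenitor cells.

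The 250 bases upstream of the start of these genes are shown because Gadd45g and Btg2 were high in the same neural cells and Gadd45g was highest in the proneural state. Windows from RefSeq (GRCm38.p6) were found for 8 of the 10 genes and searched on both strands for the E-boxes CAGCTG and CACGTG and also CAGATG, which basic helix-loop-helix proteins such as the proneural factors bind, for CCAAT, for the cyclic AMP response element TGACGTCA, added after the Btg2 window was seen, and for the p53 consensus unit of 10 letters. Capitals mark CACGTG and CAGCTG in the Gadd45g window (chr13:51846425-51846674, plus strand) and TGACGTCA in the Btg2 window (chr1:134079156-134079405, minus strand).
Gadd45g: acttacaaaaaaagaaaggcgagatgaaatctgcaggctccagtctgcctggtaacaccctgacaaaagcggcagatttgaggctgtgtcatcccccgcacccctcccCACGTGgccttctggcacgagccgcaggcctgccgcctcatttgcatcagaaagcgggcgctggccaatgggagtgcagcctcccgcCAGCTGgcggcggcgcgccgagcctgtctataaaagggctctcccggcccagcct
Btg2: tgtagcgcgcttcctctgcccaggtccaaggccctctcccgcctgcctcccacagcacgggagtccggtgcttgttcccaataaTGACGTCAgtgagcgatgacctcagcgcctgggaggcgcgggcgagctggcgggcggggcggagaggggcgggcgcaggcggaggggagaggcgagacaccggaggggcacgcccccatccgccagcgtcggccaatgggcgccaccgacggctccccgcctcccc
The Gadd45g window held CACGTG once and CAGCTG once, the second starting 55 bases before the gene's start. Among the 8 genes with a window, only Gadd45g had any of the 3 E-boxes. No window was found for Ccnd1 and Ccnd2, so these genes could not be checked. Of all 32851 mouse windows of this length, 13% held CAGCTG, 6.02% held CACGTG and 14.4% held CAGATG. The share with any of the 3 was not computed, so whether the Gadd45g matches are unusual was not tested. The Btg2 window held TGACGTCA once, which 1.55% of windows held, and none of the 3 E-boxes. CCAAT was found in windows of Ccnd3, Cdkn1b, Cdkn2d, Gadd45g and Btg2, and in 33.8% of all windows. These matches describe letters in a window and not bound sites.

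Among the D cyclins, Ccnd2 was the main transcript in every state. The gene is on chromosome 6 (127125162 to 127152188). Ccnd2 ran from 0 to 2763 TPM with a median of 171.3 TPM in neuron cells, from 0 to 2608 TPM with a median of 658 TPM in proneural cells, from 0 to 823 TPM with a median of 147.8 TPM in endoderm cells, and from 4.14 to 3528.5 TPM with a median of 967 TPM in progenitor cells. All 87 progenitor cells had it at 1 TPM or more, and no endoderm cell (0 of 62) exceeded the progenitor median. Means were 374.6 TPM in neuron against 1113 TPM in progenitor cells (ratio 0.337, difference of mean log2 -2.87, rank 43 of 11505 genes) and 198.3 TPM in endoderm against 1113 TPM in progenitor cells (ratio 0.178, difference -3.45). Proneural cells, at a mean of 789.9 TPM, did not pass the rule against progenitor cells (ratio 0.71, difference -1.18). Neuron against proneural cells passed as lower at a ratio of 0.474, but not within column set 1 (384.4 and 759.6 TPM), at a marker cutoff of 5 TPM, or with 1 marker fewer or more per state (difference of mean log2 -0.85 with 1 marker more). Only in endoderm against progenitor cells were the interquartile ranges apart for Ccnd2 among the comparisons made.

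Ccnd3, on chromosome 17 (47505051 to 47599689), followed Ccnd2 in the neural states at a lower level. Neuron cells had 0 to 414.8 TPM with a median of 32.8 TPM, proneural cells 0 to 362.6 TPM with a median of 81.9 TPM, and progenitor cells 0 to 722 TPM with a median of 118.9 TPM. The neuron interquartile range, 0.50 to 75.76 TPM, lay just under the progenitor range of 75.96 to 183.1 TPM. The mean was 52.3 TPM in neuron and 144.8 TPM in progenitor cells (ratio 0.361, difference of mean log2 -2.53). In endoderm cells the mean was 89.3 TPM with a median of 87 TPM, which did not pass the rule (difference -0.97), although it passed as lower within column set 2 (79.3 and 168.55 TPM).

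Ccnd1, on chromosome 7 (144929931 to 144939831), was higher in proneural and neuron cells than in progenitor cells, unlike its paralogs. Against proneural cells, neuron cells had a difference of mean log2 of -0.79 for Ccnd1, which did not pass the rule. Its level was 0 to 518 TPM with a median of 11.5 TPM in neuron cells, from 0 to 761.5 TPM with a median of 24.4 TPM in proneural cells, from 0 to 297.7 TPM with a median of 0 in endoderm cells, and from 0 to 237.75 TPM with a median of 0.68 TPM in progenitor cells. All 4 ranges reached 0 and the interquartile ranges overlapped between the neural states. Means were 85.8 TPM in proneural against 16.6 TPM in progenitor cells (5.18-fold, difference of mean log2 1.84, rank 19 of 10858 genes) and 61.9 TPM in neuron against 16.6 TPM in progenitor cells (3.73-fold, difference 1.05). The neuron call was absent within column set 1, where the means were 43.9 and 15.1 TPM and the difference was 0.52. It was also lost at a marker cutoff of 20 TPM and with 1 marker more per state. Ccnd1 was detected, at 1 TPM or more, in 67.6% of proneural cells (exact 95% interval 55.7% to 78%), 54.9% of neuron cells (46% to 63.5%), 19.4% of endoderm cells (10.4% to 31.4%) and 49.4% of progenitor cells (38.5% to 60.4%).

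Summed over the 3 D cyclins, the mean level was 489 TPM in neuron cells, 969 TPM in proneural cells, 298.2 TPM in endoderm cells and 1274 TPM in progenitor cells. Ccnd2 made up 76.6% of that sum in neuron cells, 81.5% in proneural cells, 66.5% in endoderm cells and 87.3% in progenitor cells. The share of Ccnd1 was 12.7% in neuron cells, 8.86% in proneural cells, 3.57% in endoderm cells and 1.30% in progenitor cells, and that of Ccnd3 was 29.9% in endoderm and 11.4% in progenitor cells. Endoderm cells thus carried relatively more Ccnd3 and neuron cells relatively more Ccnd1 than progenitor cells did.

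Ccne1 codes for cyclin E1 and lies on chromosome 7 (38097984 to 38107490). Ccne1 ran from 0 to 578 TPM with a median of 14.6 TPM in neuron cells, from 0 to 312.7 TPM with a median of 22.4 TPM in proneural cells, from 0 to 189.1 TPM with a median of 6.08 TPM in endoderm cells, and from 0 to 331.6 TPM with a median of 52.2 TPM in progenitor cells. Every range started at 0 and the interquartile ranges overlapped. Endoderm cells were lower than progenitor cells, with means of 29.9 and 77.5 TPM (ratio 0.386, difference of mean log2 -2.19). Neuron cells (mean 40.8 TPM) and proneural cells (48.9 TPM) did not pass the rule, with differences of -1.92 and -1.47 from progenitor cells. The neuron call was gained within column set 1 (30.9 and 79.7 TPM).

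**Figure D3:**
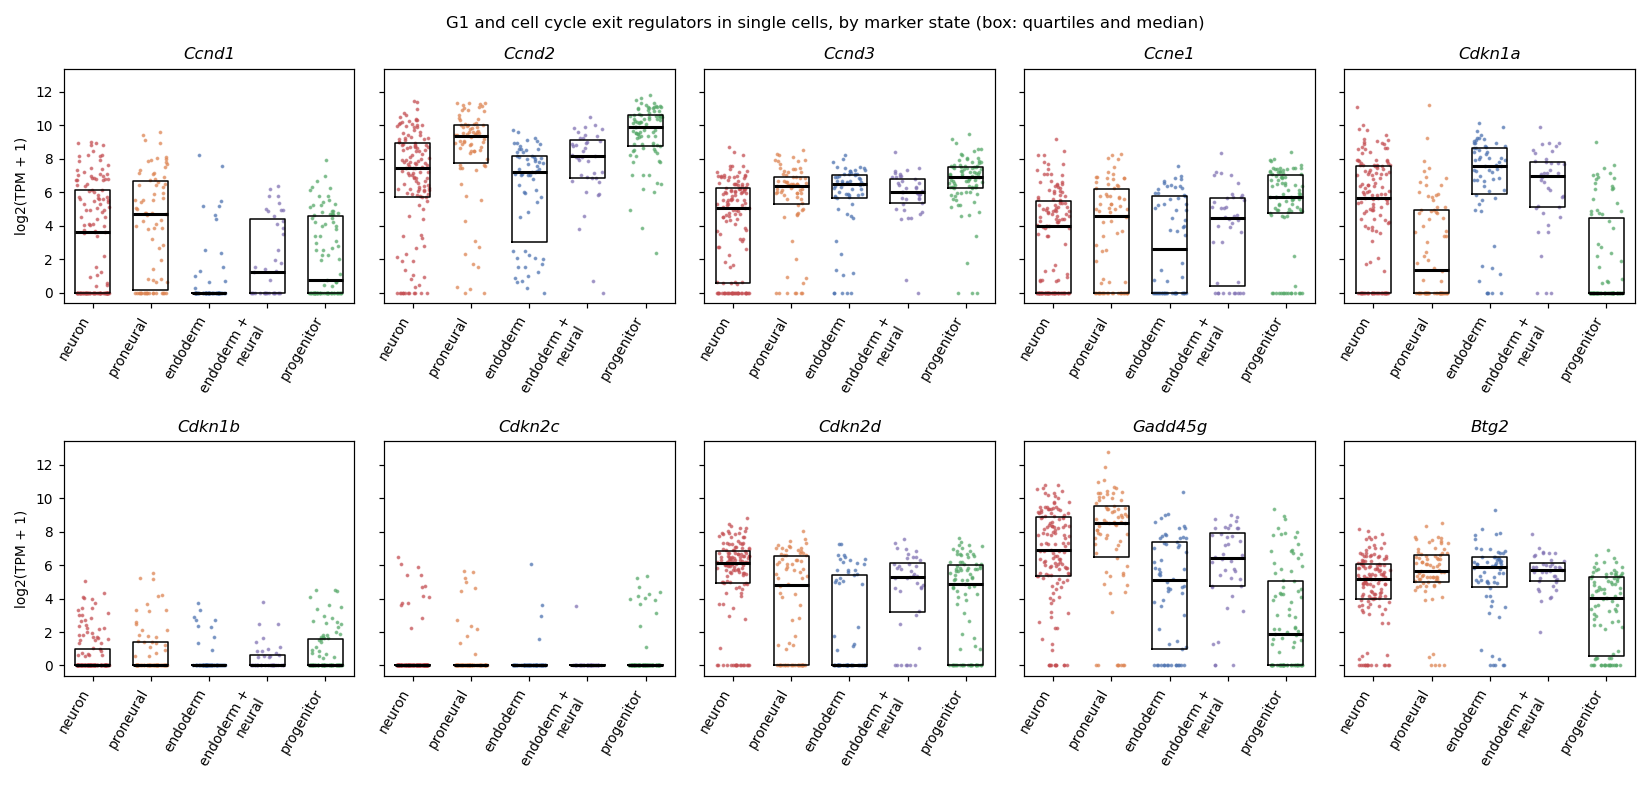
TPM of each of the 10 genes in single cells by state, on a log2(TPM + 1) axis, with the median and the interquartile range of each state. Ccnd2 has its highest median, 967 TPM, in progenitor cells, Gadd45g has its highest, 368.7 TPM, in proneural cells, and Cdkn1a has its highest, 187.04 TPM, in endoderm cells.

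Cdkn1a, which codes for the CIP/KIP inhibitor p21 and is a known p53 target, lies on chromosome 17 (29090979 to 29100722). It was highest in endoderm cells, where it ran from 0 to 1110.3 TPM with a median of 187.04 TPM, and ran from 0 to 2206 TPM with a median of 49.4 TPM in neuron cells, from 0 to 2392 TPM with a median of 1.58 TPM in proneural cells, and from 0 to 514 TPM with a median of 0 in progenitor cells. The endoderm interquartile range (57.9 to 400.4 TPM) lay above that of progenitor cells (0 to 21.6 TPM), and 57 of 62 endoderm cells exceeded the progenitor median. Means were 254.5 TPM in endoderm against 26.8 TPM in progenitor cells (9.51-fold, difference of mean log2 4.77, more than for 98.9% of 11240 genes). Neuron cells averaged 144.6 TPM, 5.41-fold above progenitor cells (difference 2.99, rank 37 of 11505 genes) and 2.26-fold above the 64 TPM of proneural cells (difference 2.24). A single proneural cell at 2392 TPM carried much of that last mean, which was 32.1 TPM without it, with the next cell at 607 TPM. Without that cell, left out after the values were seen, proneural cells differed from progenitor cells by 0.63 in mean log2 and did not pass, as they did not with it (0.75).

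The window upstream of the first Cdkn1a start is shown because Cdkn1a and its known co-target Ccng1 were both higher in endoderm cells. Of 10 other measured p53 targets, only 2 (Ccng1 and Phlda3) passed as higher there, where the rule took 12.5% of 11240 genes as higher. A part of p53 in the Cdkn1a level was not tested. The capitals mark 2 matches to the p53 consensus unit, on chr17:29090729-29090978, plus strand.
Cdkn1a: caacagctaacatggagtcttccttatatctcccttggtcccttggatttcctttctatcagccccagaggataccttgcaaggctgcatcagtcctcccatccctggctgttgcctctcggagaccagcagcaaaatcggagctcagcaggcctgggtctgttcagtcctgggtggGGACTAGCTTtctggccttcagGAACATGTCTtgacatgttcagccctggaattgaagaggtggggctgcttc
The matches start 73 and 51 bases before the start. At least 1 match was found in 7.13% of all mouse windows, among them 1 of Cdkn2d, and none was found in the window of the second Cdkn1a start (chr17:29093519-29093768).

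Cdkn2d, which codes for the INK4 inhibitor p19, lies on chromosome 9 (21288459 to 21291421). Cdkn2d ran from 0 to 449.9 TPM with a median of 68.5 TPM in neuron cells, from 0 to 259.45 TPM with a median of 27.4 TPM in proneural cells, from 0 to 155.1 TPM with a median of 0 in endoderm cells, and from 0 to 196.3 TPM with a median of 27.9 TPM in progenitor cells. It was detected in 86.5% of neuron cells (exact 95% interval 79.5% to 91.8%), 64.9% of proneural cells (52.9% to 75.6%), 43.5% of endoderm cells (31% to 56.7%) and 67.8% of progenitor cells (56.9% to 77.4%). The mean was 87 TPM in neuron and 41.4 TPM in progenitor cells, a ratio of 2.10 that barely passed the rule (difference of mean log2 1.65). Within column set 2 it did not pass (69 and 45.3 TPM), and it was lost in 6 of 15 alternative settings. Proneural cells, at a mean of 49.7 TPM, differed from progenitor cells by -0.07 in mean log2.

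Cdkn1b, which codes for p27, and Cdkn2c, which codes for the INK4 inhibitor p18, were close to the lower limit of these data. Cdkn1b (chromosome 6, 134920401 to 134925525) was detected in 98 cells (24.3%, exact 95% interval 20.2% to 28.8%) with a highest value of 45 TPM. Cdkn2c (chromosome 4, 109660876 to 109666756) was detected in 43 cells (10.7%, 7.83% to 14.1%) with a highest value of 89.5 TPM. Their medians were 0 in all 4 states, and the state means lay between 0.83 and 3.04 TPM for Cdkn1b and between 1.38 and 3.19 TPM for Cdkn2c. Neither passed the rule in the comparisons as made. With a pseudocount of 0.1 TPM, Cdkn1b passed as lower in endoderm than in progenitor cells (difference of mean log2 -1.02), where it was detected in 14.5% of endoderm cells (6.86% to 25.8%) and 29.9% of progenitor cells (20.5% to 40.7%). The p27 protein is known to be set largely by its turnover, which RNA does not show.

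Summed over the 4 inhibitors, the mean level was 236.5 TPM in neuron cells, 119.7 TPM in proneural cells, 281.2 TPM in endoderm cells and 72.8 TPM in progenitor cells. Cdkn1a supplied 61.2% of it in neuron cells, 53.4% in proneural cells, 90.5% in endoderm cells and 36.8% in progenitor cells, where Cdkn2d supplied 56.9%. The proneural sum and share rest in large part on the single cell with 2392 TPM of Cdkn1a. Without that cell the proneural Cdkn1a mean was 32.1 TPM, below the Cdkn2d mean of 49.7 TPM over all 74 proneural cells. Cdkn1a exceeded Ccnd2, per length, in 45 neuron cells (33.8%, exact 95% interval 25.9% to 42.5%), 6 of 74 proneural cells (8.11%, 3.03% to 16.8%), 37 of 62 endoderm cells (59.7%, 46.4% to 71.9%) and 2 of 87 progenitor cells (2.30%, 0.280% to 8.06%). This count, too, was chosen after the values were seen.

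**Figure D4:**
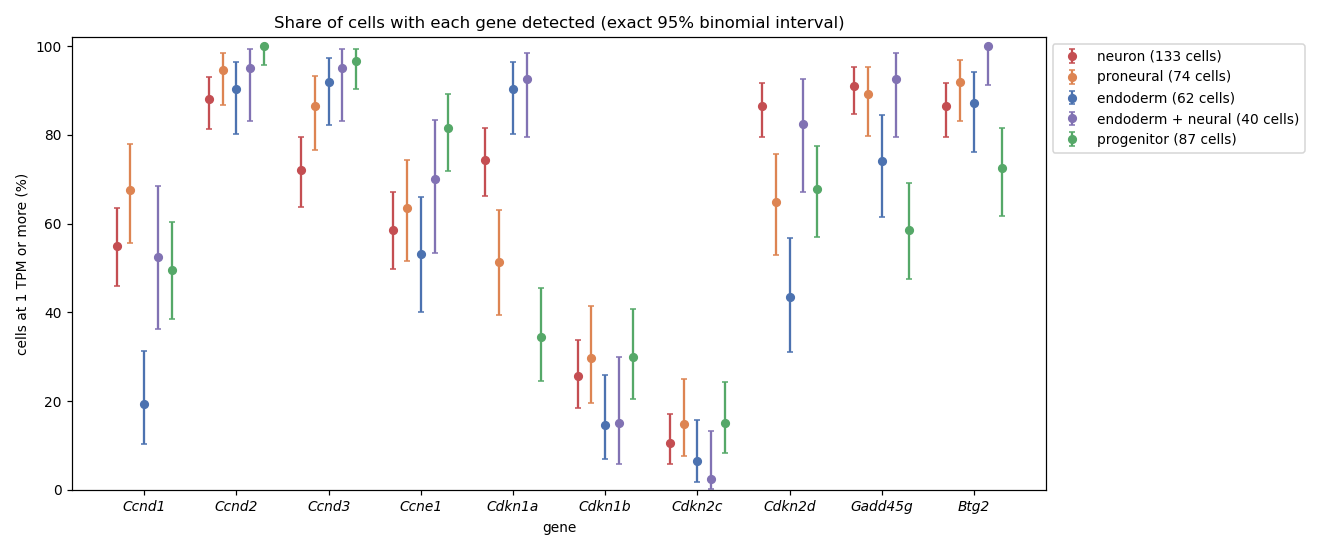
Share of cells with each gene at 1 TPM or more, in percent, by state, with exact 95% intervals for counting error. Ccnd2 was detected in 100% of progenitor cells, Cdkn1a in 90.3% of endoderm cells against 34.5% of progenitor cells, and Cdkn1b and Cdkn2c in at most 29.9% of the cells of each state.

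Ordered by mean level, no 2 neighbouring states of any gene were clear of each other: the interquartile ranges overlapped in all 40 neighbouring pairs of states. Cells with both endoderm and neural markers stood between the endoderm and proneural means for several genes, with 172.8 TPM of Cdkn1a, 377.96 TPM of Ccnd2 and 146.9 TPM of Gadd45g. Their means lay below both of those for Ccnd3 (79 TPM), Btg2 (58.5 TPM), Cdkn1b (0.82 TPM) and Cdkn2c (0.27 TPM). Their Ccnd1 mean was 12.9 TPM, against 61.9 TPM in neuron, 10.7 TPM in endoderm and 16.6 TPM in progenitor cells, and they detected it in 52.5% of cells (exact 95% interval 36.1% to 68.5%).

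Within the neuron, proneural and progenitor cells, the genes were also followed by the number of neuron markers at 10 TPM or more, in bins drawn after the values were seen (0 to 2, 3 to 5, 6 to 8, 9 to 10 and 11 to 12 markers, with 59 cells in the first and the last bin and 28 in the smallest). Mean Ccnd2 was 1100.1, 886, 517, 440.9 and 231.9 TPM along these bins. Mean Ccnd3 was 130.4, 115.96, 67.6, 63.1 and 35.2 TPM, so both means were lower in each bin than in the one before. The medians did not fall at every step. Median Ccnd2 was 220.278 TPM at 6 to 8 markers and 272.975 TPM at 9 to 10 markers. Median Ccnd3 was 49.2 and 54.7 TPM in the same bins. Mean Cdkn2d was 43.7, 46.1, 64.5, 74.5 and 110.4 TPM, and was higher in each bin than in the one before. Its median was lower at 3 to 5 markers (25.9 TPM) than at 0 to 2 markers (33.1 TPM). Cdkn1a averaged 25.8, 54.3, 117.3, 98.8 and 187.7 TPM, with medians of 0, 0.57, 35.6, 48.4 and 67.3 TPM. Gadd45g, Btg2 and Ccnd1 peaked in the middle bin instead. Median Gadd45g was 2.17, 136.3, 291.4, 101.75 and 72.7 TPM, mean Btg2 was 28.4, 57.7, 65.7, 50.7 and 38.5 TPM, and mean Ccnd1 was 18.1, 66, 94.7, 48.4 and 42.8 TPM. The share of cells with at least 10 of 20 G2/M genes at 10 TPM was 81.4%, 81.4%, 76.1%, 75% and 35.6% in the same order, and the median number of genes was 6114, 6969.5, 6929, 7395 and 7098. The part of cell cycle state and of gene number in these trends was not tested.

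**Figure D5:**
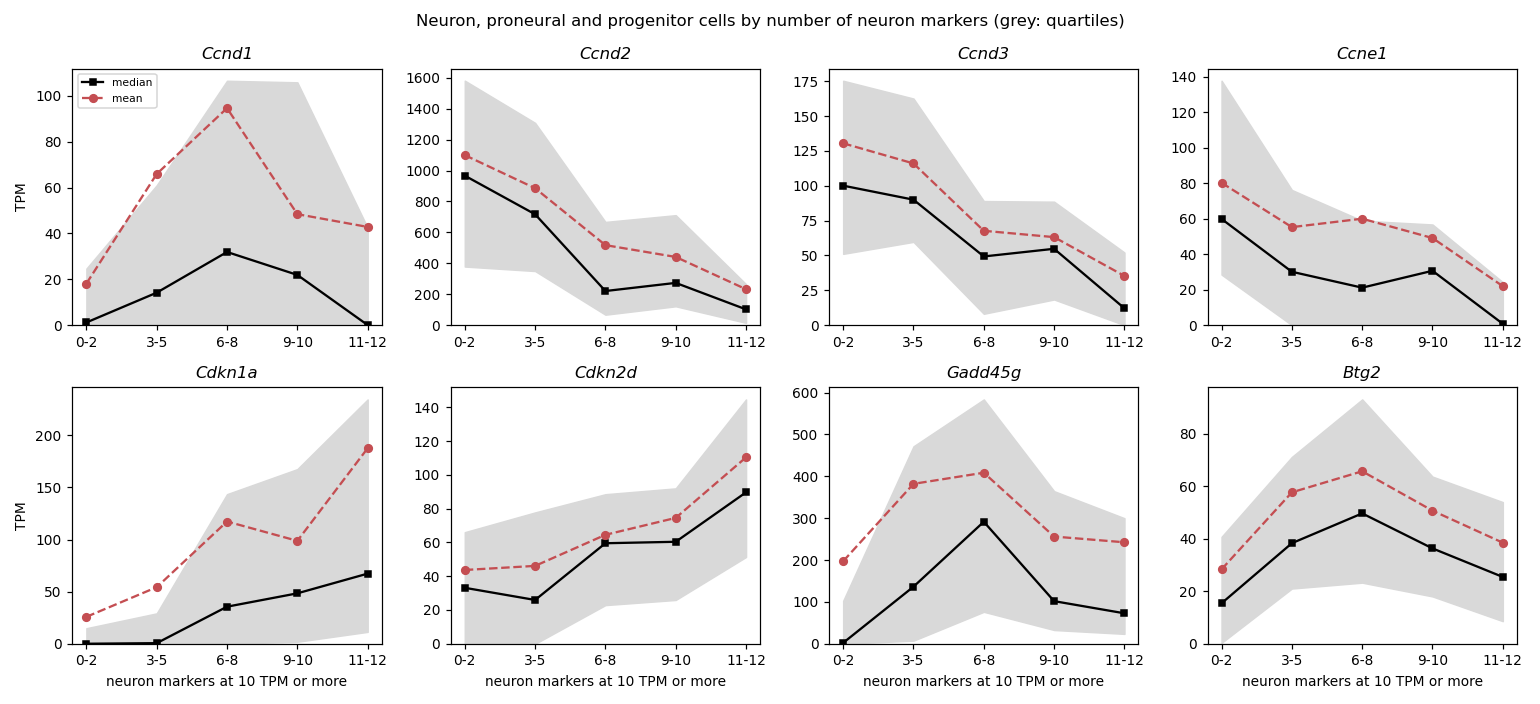
Mean TPM of the genes in neuron, proneural and progenitor cells by the number of neuron markers at 10 TPM or more. Ccnd2 and Ccnd3 are highest at 0 to 2 markers, Gadd45g, Btg2 and Ccnd1 have their highest means at 6 to 8 markers, and Cdkn1a and Cdkn2d at 11 to 12 markers.

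G2/M genes were used to divide the progenitor cells into 75 with at least 10 of the 20 genes and 12 with fewer. Of the 10 genes, 2 were higher in the 75 G2/M-high than in the 12 G2/M-low cells, Cdkn2d (45 and 18.9 TPM) and Gadd45g (56.7 and 10.9 TPM), and 0 were lower, where 11.8% of 10087 genes passed, 11.1% higher and 0.734% lower. The median number of genes was 6778 in G2/M-high and 5103.5 in G2/M-low cells, and the median of all genes differed by 0.55 in mean log2, so the 1.98 of Cdkn2d and the 1.28 of Gadd45g stand on a raised baseline. The Cdkn2d call was absent within column set 2, which holds 5 of the G2/M-low cells (45.7 and 42.1 TPM). The Gadd45g call was lost at a marker cutoff of 20 TPM and without the cell filter. Cdkn1a, not called here, passed as higher in 8 of 15 alternative settings. Among these were column set 1 (23.2 and 9.08 TPM) and column set 2 (34.6 and 5.71 TPM). Ccnd2 had means of 1066 TPM in G2/M-high and 1408 TPM in G2/M-low cells and did not pass.

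For each gene, the 3 genes with the most similar pattern were taken by Spearman's rho over all distinct cells among 11135 genes detected in at least 10% of them. These cells carry 1 label and differ in gene number, and no test was made. Gadd45g was nearest to the Notch-pathway factor Hes6 (0.61), the neuronal factor Ebf2 (0.57) and the neuroendocrine factor Insm1 (0.56), and Ccnd1 to Neurod4 (0.49), Hes6 (0.49) and Ebf2 (0.48). Btg2 was nearest to Gadd45g (0.51), before Hes6 (0.42) and Ebf2 (0.38). Ccnd2 was nearest to Sfrp2, a secreted Wnt modulator (0.64), the Notch target Hes5 (0.62) and the ribosomal gene Rps2 (0.61), and Ccnd3 to Cnbp (0.44), Phgdh (0.43) and Ccnd2 (0.42). Ccne1 was nearest to genes of DNA replication and S phase: Slbp (0.59), Rpa2 (0.57) and Pcna (0.57). Cdkn1a was nearest to Ccng1, another p53 target (0.51), Cystm1 (0.47) and Atp6v0b (0.47), and Cdkn2d to Calm2 (0.47), Tubb5 (0.44) and Tppp3 (0.40). The highest rho was 0.32 for Cdkn2c (Fbxo5) and 0.23 for Cdkn1b (Boc), the sparsest of the 10. Hes6, Neurod4, Insm1 and Hes5 are among the markers that defined the states.

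Other genes of the pathway were read from lists of related functions. Over all genes compared, the rule took 4.82% as higher and 1.70% as lower in neuron against progenitor cells. It took 0.700% and 0.0368% in proneural against progenitor cells, and 2.96% and 0.339% in neuron against proneural cells. In neuron against progenitor cells, 1 of 3 measured further CDK inhibitors passed: Cdkn1c, which codes for p57, was higher, with means of 923 and 155.4 TPM. The same gene was higher in proneural cells (928 against 155.4 TPM), so that its mean exceeded that of each of the 4 inhibitors described above in both states. None of 8 G1 kinases, their partners and the second E cyclin passed in neuron cells, nor did any of 17 retinoblastoma and E2F genes or of 10 measured p53 targets. Of 9 genes of MYC and p27 turnover 1 was lower (Mycn, 11.8 and 27.9 TPM), and of 7 measured GADD45 and BTG/TOB genes 1 was higher (Gadd45a, 30.3 and 11.8 TPM). Among cell cycle genes, 5 of 20 S phase genes were lower in neuron than in progenitor cells, such as Mcm5, a subunit of the replicative helicase (25.3 and 72.1 TPM), and 9 of 20 G2/M genes, such as Birc5 (279.1 and 574 TPM). In proneural against progenitor cells none of the S phase or G2/M genes passed, and beside Cdkn1c only the E2F partner Tfdp2 did (197.9 and 81 TPM, higher). In neuron against proneural cells, 1 of all these genes passed, the mitotic activator Cdc20 (67.7 and 167.03 TPM, lower). The median difference of mean log2 was -1.50 for the S phase list and -1.75 for the G2/M list in neuron against progenitor cells, 0.47 for the 10 genes and 0.08 for all genes tested.

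In endoderm against progenitor cells the lists moved more widely, as did all genes, of which the rule took 12.5% as higher and 13.8% as lower. Of 20 S phase genes 15 were lower, such as Rrm2 (56.9 and 266.9 TPM), and of 20 G2/M genes 18, such as Aurkb (34.8 and 158.7 TPM). Cdk4, the partner of the D cyclins, was lower (761 and 2012 TPM), as was Mnat1, and 6 of 17 retinoblastoma and E2F genes were lower, such as E2f5 (25.5 and 78.7 TPM) and Rbl1 (4.83 and 17.9 TPM). Of 9 genes of MYC and p27 turnover 5 were lower, among them Skp2, which targets p27 for degradation (9.36 and 35 TPM), and Mycl (2.45 and 22.3 TPM). The INK4 gene Cdkn2b was higher (27.9 and 0.81 TPM) and Cdkn3 lower (40.4 and 90.9 TPM). Of 7 GADD45 and BTG/TOB genes 2 were higher, Gadd45b (37 and 0.80 TPM) and Btg3 (74 and 35.8 TPM), and of 10 measured p53 targets 2 were higher, Ccng1 (89.8 and 29.3 TPM) and Phlda3 (59.8 and 14.3 TPM). The median difference of mean log2 was -1.88 for the S phase list, -3.18 for the G2/M list, -0.70 for the 10 genes and -0.20 for all genes tested. None of 9 housekeeping genes passed in any of the 4 comparisons of states.

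The 55 pairs of near-copy columns were taken as repeats of the same cells, which no label states. They were picked for a Pearson r above 0.93 between their columns, so close agreement was in part built in. The values below describe these pairs and do not measure how well a repeat returns the same value. Ccnd2 was detected in both columns of 54 pairs, with a median absolute difference of 0.18 in log2(TPM + 1), Btg2 in both of 47 pairs (0.23) and Gadd45g in both of 44 pairs (0.17). Cdkn2d was detected in both columns of 35 pairs and in only 1 column of 10, Cdkn1a in both of 25 and in 1 of 8, Cdkn1b in both of 10 and in 1 of 5, and Cdkn2c in both of 6 and in 1 of 2. Ccnd1 was detected in both columns of 34 pairs with a median absolute difference of 0.56. The largest absolute difference between detected repeats was 1.95 for Ccnd1, 1.75 for Cdkn2d and 1.76 for Ccnd2. Of the 55 pairs, 53 had both columns in the same state.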

How the data were processed

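Single cells from embryoid bodies kept with retinoic acid were profiled on a Fluidigm C1 with SMART-Seq V4 and Nextera XT, per the labels' protocols. The authors deposited 1 table with no stated unit, taken here as TPM made with STAR and RSEM on mm10, which the submitters' processing notes name without versions. Its columns hold decimals that sum to 54.2% to 95.1% of the TPM total. TPM keeps no depth, so the depth per cell is unknown. No column name matches a sample title, and all 464 samples share 1 group.

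Of 464 columns (228 and 236 in the 2 name sets) 458 were kept, and they held 403 distinct cells, 133 of them neuron cells. Near-copy columns (Pearson r above 0.93 over 13756 genes; 55 pairs at 0.95 to 0.99, highest other r 0.92) were averaged. Genes entered a comparison with a mean of at least 1 TPM in either state and 1 TPM or more in at least 10 cells. Gene lists, markers and the 10 genes were chosen with earlier results of these data known. The text names all 10 genes, up to 5 genes per list and direction past the size rule, of which it prints a selection, and the 3 most similar genes. Shares have exact Clopper-Pearson 95% intervals. Alternatives covered marker cutoffs, column sets, cell filters, scaling and the pseudocount. Python 3.11.15, numpy 2.4.6, scipy 1.17.1, pandas 2.3.3 and matplotlib 3.10.9 were used. The RefSeq reference is GRCm38.p6, the build mm10 names.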

Additional observations from a re-analysis of the deposited data

How the results depend on the processing

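Of the 50 gene and comparison pairs, 19 were called, 11 of these kept their call in all 15 alternatives, and 0 reversed. The other 8 lost it in at least 1 alternative, and 17 of the 31 pairs not called gained a call in at least 1. The higher Cdkn1a in neuron than in proneural cells was lost at a marker cutoff of 20 TPM and with 1 marker more, and the lower Ccnd2 there at 5 TPM, with 1 marker fewer or more, and in column set 1. At a pseudocount of 0.1 TPM, Cdkn1b was called lower in endoderm than in progenitor cells, and Cdkn2c higher in G2/M-high than in G2/M-low progenitors, as it was on mean TPM alone. The depth per cell is unknown. The number of the 10 genes called moved by over 1.5 times as follows. In neuron against proneural cells (2) it was 1 at a marker cutoff of 5 TPM, 1 with 1 marker fewer or more per state, and 4 on mean log2 alone. In neuron against progenitor cells (7) it was 4 with 1 marker more, and in proneural against progenitor cells (3) it was 6 on mean log2 alone. In G2/M-high against G2/M-low progenitors (2) it was 1 at 20 TPM and 4 with column set 1 only, mean TPM alone, mean log2 alone or a pseudocount of 0.1 TPM. The cause of these changes was not tested. Progenitor cells were 16.9% of cells at 5 TPM, 28.04% at 20 TPM, 15.9% with 1 marker fewer, 26.1% with 1 more and 26.3% in column set 1. Proneural cells were 13.9% at 20 TPM and 14.4% with 1 marker more. Cells with endoderm and neural markers were 5.71% at 20 TPM, 13.6% with 1 marker fewer and 7.14% in column set 1. No paired analysis was possible because all samples belong to 1 group and no result comes from a test between groups.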
